A study of Mus musculus with 12 samples.

Results

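The metastatic melanoma line B16F10 was compared here with the less aggressive line it came from, B16F0, both untreated, across every gene of the deposited table. The comparison used 4 of the 12 RNA sequencing libraries of the series, 2 of untreated B16F10 and 2 of untreated B16F0, and all 34513 genes in the file. Libraries were assigned by the line and treatment in their labels, and no measured value was used to choose them. Both lines are cultures of mouse melanoma cells, and the labels give no engineered allele and no agent for either. The remaining 8 libraries held both lines after SX-682, a small molecule that blocks the chemokine receptors CXCR1 and CXCR2, and Melan-A cells, a non-tumorigenic melanocyte line, with and without it. The SX-682 and Melan-A values are given only beside the same genes of B16F0 and B16F10. A single culture line stands for each state, so metastatic ability and any other difference between these 2 long-cultured lines cannot be told apart, and the labels do not say whether the 2 libraries of a line came from separate cultures. The p-values therefore measure the spread between libraries of the same group, estimated from all 12 libraries of the series, and this spread may be technical.

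B16 is a spontaneous melanoma of the C57BL/6 mouse, and B16F10 is the subline that was obtained from it by repeated passage through mice, selecting for cells that colonise the lung. B16F0 is the parental line, which forms tumours but seeds the lung poorly. Melanoma cells keep much of the programme of the melanocyte, a pigment cell derived from the neural crest, and this programme is driven by the transcription factors MITF and SOX10. They can shift between a pigmented, dividing state and a less pigmented, more motile state, and colonising a distant organ calls on adhesion to matrix, secreted proteases, signals to immune cells and survival pathways.

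Each library held between 48876982 and 85322092 counted reads over the 12 libraries, with 75138976 and 67306101 in untreated B16F0 and 64546934 and 68414002 in untreated B16F10. Levels are given as counts per 1000000 reads (CPM) after scaling the libraries to a common composition, and a gene was taken as not measurable where a library held 3 counts or fewer, which was 0.04 to 0.0496 CPM in these 4 libraries. All 12 libraries were closest to the other library of their own group, and replicates differed by more than the sampling noise of the counts. Both lines carried the melanocyte genes that their labels call for, and the summed level of 10 melanocyte genes was 19450 and 19352 CPM in the B16F0 libraries and 25247 and 25220 CPM in the B16F10 libraries. Markers of other cell types were low. The summed level of 10 lymphocyte genes was 0.267 and 0.387 CPM in B16F0 and 0.0165 and 0.0782 CPM in B16F10, with Cd3e at 0 counts in all 4 libraries. The 9 myeloid genes summed to 12.4 and 10.6 against 27 and 26 CPM, most of it Cd68, a lysosomal protein, while Itgam, Aif1 and Tyrobp were at 0. The 10 fibroblast genes summed to 28.7 and 27.3 against 9.77 and 10.8 CPM with Dcn, Thy1 and Dpt at 0, and nearly all of it came from Pdgfrb, Pdgfra, Col1a1 and Col1a2. The 9 endothelial genes to 33.7 and 32.2 against 64.8 and 67.3 CPM with Kdr at 0. Of this, Vwf, von Willebrand factor, held 5.46 and 5.25 against 53.7 and 54.2 CPM and Egfl7 28.1 and 26.8 against 10.9 and 12.8 CPM, and the highest of the other endothelial genes was Flt1 at 0.116 and 0.141 CPM in B16F10. The 10 epithelial genes to 1.57 and 1.41 against 1.02 and 0.892 CPM with Krt8 at 0.

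The lines differed at most genes they expressed. Of 18338 genes with enough reads to test, 11368 (62.0%) passed edgeR's quasi-likelihood test at an adjusted p of 0.05, 5639 (30.8%) higher and 5729 (31.2%) lower in B16F10. Most differences were small, with a median absolute log2 fold change of 0.56 among the genes called and 0.46 over all genes tested. A difference of at least 2-fold was called at 3652 genes (19.9%), of which 1404 (7.66%) were higher and 2248 (12.3%) lower in B16F10. Log2 fold changes beyond 5 in size were found at 113 genes in the higher and 246 in the lower direction. The biological coefficient of variation between replicates was 2.78%, and the counts at 2-fold leave out the many small differences that passed the test. At 11323 of the 11368 genes called, both libraries of a line lay above both of the other line, so separated libraries add little to a call. With 2 libraries a group an exact permutation test of a single gene cannot give a p below 0.333.

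Rassf4, which encodes a RAS-association domain protein, had the largest excess in B16F10 among genes with more than 3 counts in all 4 libraries and a mean of at least 2 on the log2 CPM scale. Its levels were 0.254 and 0.238 CPM in the 2 B16F0 libraries and 184 and 185 CPM in the 2 B16F10 libraries. The log2 fold change was 9.54, and the B16F0 levels rest on 19 and 16 counts. Both B16F10 libraries stood far above both B16F0 libraries, and Melan-A held 8.4 CPM on average. Ulbp1, a stress-induced ligand of the activating receptor NKG2D on natural killer and T cells, was measured at 8.25 and 8.39 CPM in B16F0. It stood at 381 and 395 CPM in B16F10, a log2 fold change of 5.54 (adjusted p = 8.8e-37, edgeR's quasi-likelihood test). Fads3, of the fatty acid desaturase cluster, went from 1.29 and 0.937 to 222 and 217 CPM. Again the lines did not overlap at either gene.

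The other genes with the largest excess in B16F10 fell into several kinds. Small-molecule and second-messenger enzymes were among them, with Ddah2, which breaks down inhibitors of nitric oxide synthase, at 0.387 and 0.625 against 62.2 and 58 CPM, and the cyclic nucleotide phosphodiesterases Pde7b (log2 fold change 5.57) and Pde1b (4.16). Transporters and channels included Abcc2, an export pump for conjugated compounds, at 0.801 and 0.952 against 87.3 and 86.3 CPM, and the potassium channel gene Kcnh2 (4.86). Signalling genes included Apln, the secreted ligand of the apelin receptor, with a log2 fold change of 4.59, and Tnfrsf1b, a receptor for tumour necrosis factor, with 4.49. Zic1, a transcription factor of the early neural crest, was at 1.4 and 1.32 CPM in B16F0 and 27 and 28.6 CPM in B16F10 and had no count in Melan-A. Emp1, Hspb8, Art3 and Cpt1c completed the 15 largest excesses, with log2 fold changes of 4.47, 4.19, 4.14 and 4.52. The rule that chose the 15 required both B16F10 libraries to lie above both B16F0 libraries.

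The largest deficits in B16F10 were steeper. Vill, a member of the villin family of actin-binding proteins, was at 205 and 201 CPM in B16F0 and 0.116 and 0.157 CPM in B16F10. This was a log2 fold change of -10.52 (adjusted p = 1.5e-36, edgeR's quasi-likelihood test), with 7 and 10 counts in B16F10. Epha3, a receptor tyrosine kinase of the ephrin family that acts in cell repulsion, fell from 205 and 208 CPM in B16F0 to 0.198 and 0.469 CPM in B16F10. Arl6ip1, which shapes the endoplasmic reticulum, was at 268 and 271 against 0.744 and 0.641 CPM. At these 3 genes both B16F10 libraries were under 1 CPM while both B16F0 libraries were at 201 CPM or more.

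Gstp2, a glutathione transferase, stood at 162 and 243 CPM in B16F0 with a wide gap between its 2 libraries, and at 0.281 and 0.297 CPM in B16F10. Its near-identical neighbour Gstp1 was at 703 and 699 against 617 and 622 CPM (log2 fold change -0.18), so the split of reads between the pair is uncertain. Pianp, Arhgap30 and Emilin1, an extracellular matrix glycoprotein, had log2 fold changes of -9.68, -9.37 and -9.06. Edil3, a secreted integrin ligand, was at 62.5 and 65.1 CPM in B16F0 and 0.678 and 0.767 CPM in B16F10. Genes known from neurons were also on this side, with Ache (acetylcholinesterase) at -5.25, Map1a (a microtubule-associated protein) at -5.24 and Tubb2b (a beta-tubulin) at -5.11. Mdfi (-5.99), Selenop (-5.75), Adgre5 (-6.73) and Pcdhgb2 (-6.41) completed the 15, and of these Adgre5 shared 23.8% of its exonic bases with Ddx39 on the opposite strand, Selenop 15.4% with Ccdc152, and Pcdhgb2 43.4% with Pcdhga1 on its own strand. Whether the counting used strand is not stated, so reads over such stretches cannot be assigned to 1 gene. Of the genes described further on, Pcdhgc3, Pcdh7, Cd9, Ctnnb1, Ccna2, Gpi1, Hmgcs1 and Mest likewise share 28.4%, 21.1%, 10.7%, 14.6%, 12.5%, 11.5%, 12.1% and 23.1% of their exonic bases with a gene on the opposite strand, and Bax 12.2% with 1 on its own strand.

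**Figure D1:**
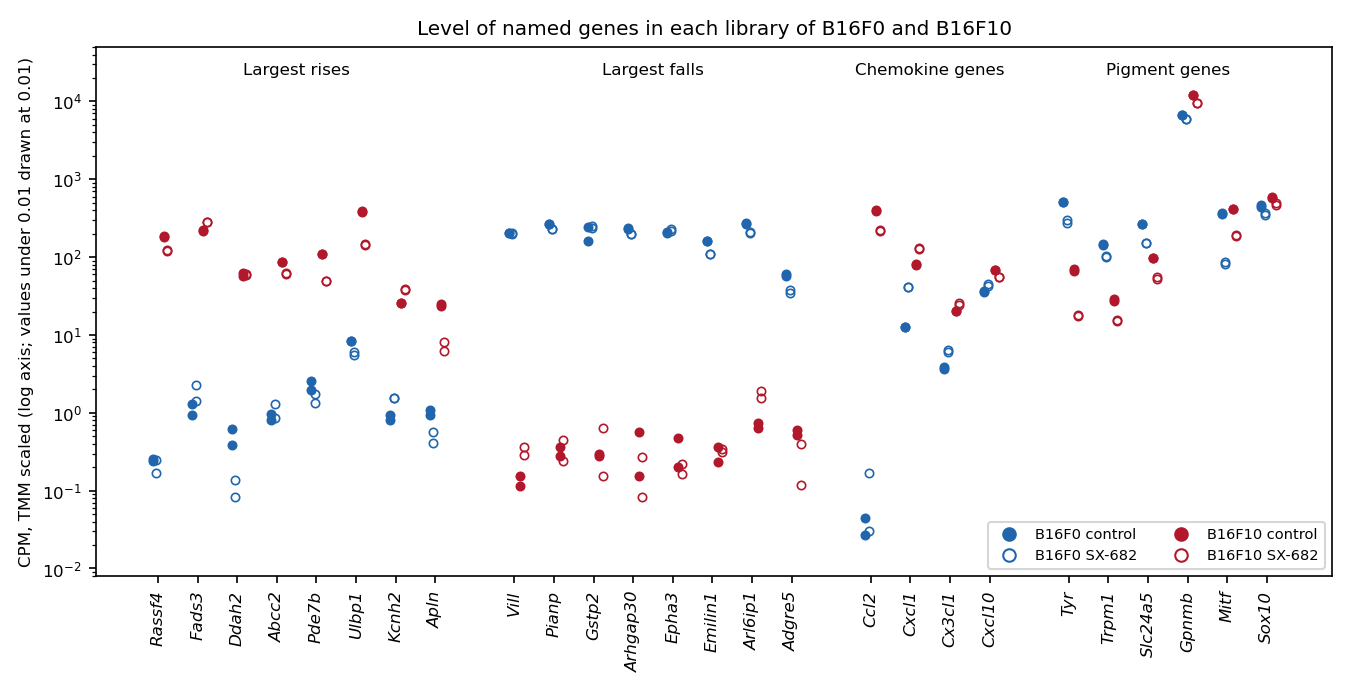
Levels in CPM (log axis) of the 8 genes with the largest excess and the 8 with the largest deficit in untreated B16F10, and of 4 chemokine and 6 pigment cell genes, with each library of B16F0 (blue) and B16F10 (red) as a point, filled for control and open for SX-682. Rassf4 moved from about 0.246 to 184 CPM and Vill from 203 to 0.136 CPM on average. At these 16 genes the control libraries of the lines lie apart, as the rule that chose them required. The SX-682 libraries, which the rule did not use, lie apart as well.

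A set of genes went from readily counted to not measurable. Genes with at least 1 CPM in both libraries of a line and 3 counts or fewer in both libraries of the other numbered 57 in B16F10 alone, 54 of them protein coding, and 141 in B16F0 alone, 128 of them protein coding. Ccl2, the chemokine that draws monocytes, had the highest level of those found in B16F10 alone, with 2 and 3 counts in the B16F0 libraries and 23825 and 25435 counts in the B16F10 libraries. That put the B16F10 level at 394 and 398 CPM, a ratio of 11300 with a counting interval of 4820 to 34700. The SX-682 libraries of the same lines kept the direction, with 0.0304 and 0.166 CPM in B16F0 and 222 and 218 CPM in B16F10.

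Serpine2, an inhibitor of thrombin and urokinase, had 0 and 3 counts in B16F0 and 2771 and 3018 in B16F10, a ratio of 2210 (754 to 10700), and Melan-A expressed it at 468 CPM. Igfbp7, a secreted binding protein that restrains growth in melanocytes, had 1 and 3 counts in B16F0 and 1346 and 1349 in B16F10, a ratio of 770 (300 to 2830). Rftn1, a lipid raft protein, Arrdc4, Anxa3 and the tyrosine phosphatase gene Ptpn13 had no count in either B16F0 library and were at least 959-fold, 752-fold, 737-fold and 549-fold higher in B16F10. Tuba3b and Ogdhl had ratios of 11200 (3820 to 54100) and 3730 (669 to 147000), where Tuba3b belongs to a family of near-identical alpha-tubulins. Pcdhgc3 was at least 4410-fold higher, but its exons are shared in part with the other genes of its protocadherin cluster (38.5% with Pcdhga1).

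Among genes counted in B16F0 alone, Sdc2, a heparan sulfate proteoglycan of the cell surface, was at 69.5 and 67.9 CPM in B16F0 and had no count in B16F10, which made it at least 1390-fold lower. Crmp1, a phosphoprotein of growing axons, had 6687 and 5654 counts in B16F0 and 2 and 1 in B16F10, a ratio of 3600 (1230 to 17500). Smpdl3a, a phosphodiesterase of the sphingomyelinase family, was at least 843-fold and Lmo1, a transcriptional cofactor with oncogenic activity in other cancers, at least 745-fold lower in B16F10. These 3 had 66.1, 19.8 and 0.044 CPM in Melan-A in the order Sdc2, Smpdl3a, Lmo1. Over all genes of this kind, 24 of the 57 found in B16F10 alone and 47 of the 141 found in B16F0 alone were at 1 CPM or more in both Melan-A libraries. In the SX-682 libraries, which are other samples of the same lines, 36 of the 57 (63.2%) and 112 of the 141 (79.4%) met the same rule again.

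With symbols ending in Rik and clone names left out, the remaining 6 of the 10 highest genes counted in B16F0 alone, Fndc3c1, Sh3bgrl, Brwd3, Foxr2, Cstf2 and Hmgn5, lie on the X chromosome, as did 2610002M06Rik, which stood at 59.1 CPM and was left out for its symbol, and in all 28 of the 141 genes, whereas 568 of the 18338 genes tested were on X. Of these 28, 18 followed each other without a break among the genes counted in B16F0, from Fndc3c1 to Trmt2b at chrX:106420041-134276984 (GRCm38, 27.86 Mb). The stretch was noticed in these values, and its limits were drawn from them. It held 41 protein-coding genes, to which the 2 B16F0 libraries gave 75796 reads and the 2 B16F10 libraries 1 read. The SX-682 libraries gave 57692 reads in B16F0 and 1 read in B16F10 for the same 41 genes. Over all 82 genes of the stretch, B16F10 had 161 reads against 76221 in B16F0 (0.211%), and the 9 genes with more than 3 counts in a B16F10 library were all processed pseudogenes.

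Several genes of the stretch have well-known roles. Chm encodes the Rab escort protein that is lost in choroideremia, Brwd3 a bromodomain protein linked to intellectual disability, Cstf2 a subunit of the complex that cleaves messenger RNA precursors at their end, and Pcdh19 a protocadherin linked to epilepsy. Brwd3 stood at 64.3 and 69.9 CPM in B16F0, Cstf2 at 51.9 and 49 CPM and the nucleosome-binding protein gene Hmgn5 at 45.4 and 48 CPM, and none of the 3 had a count in B16F10. These levels made them at least 1350-fold, 1020-fold and 942-fold lower. Melan-A expressed all 3, at 26.1, 62.5 and 28.1 CPM. Of the 82 genes, 44 had more than 3 counts in a Melan-A library, and 14 were at 1 CPM or more in both Melan-A libraries. Fndc3c1 was among those nearly absent from Melan-A, with 131 and 129 CPM in B16F0, 0 and 1 counts in B16F10 and 0.04 CPM in Melan-A. Rps6ka6 and Sytl4 were also low in Melan-A, at 0.0501 and 0.194 CPM. The nearest expressed genes outside were counted in both lines, with Taf9b before the stretch at 12.4 CPM in B16F0 and 5.76 CPM in B16F10, and Cenpi after it at 15.6 and 23 CPM. Genomic DNA was not examined here.

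**Figure D2:**
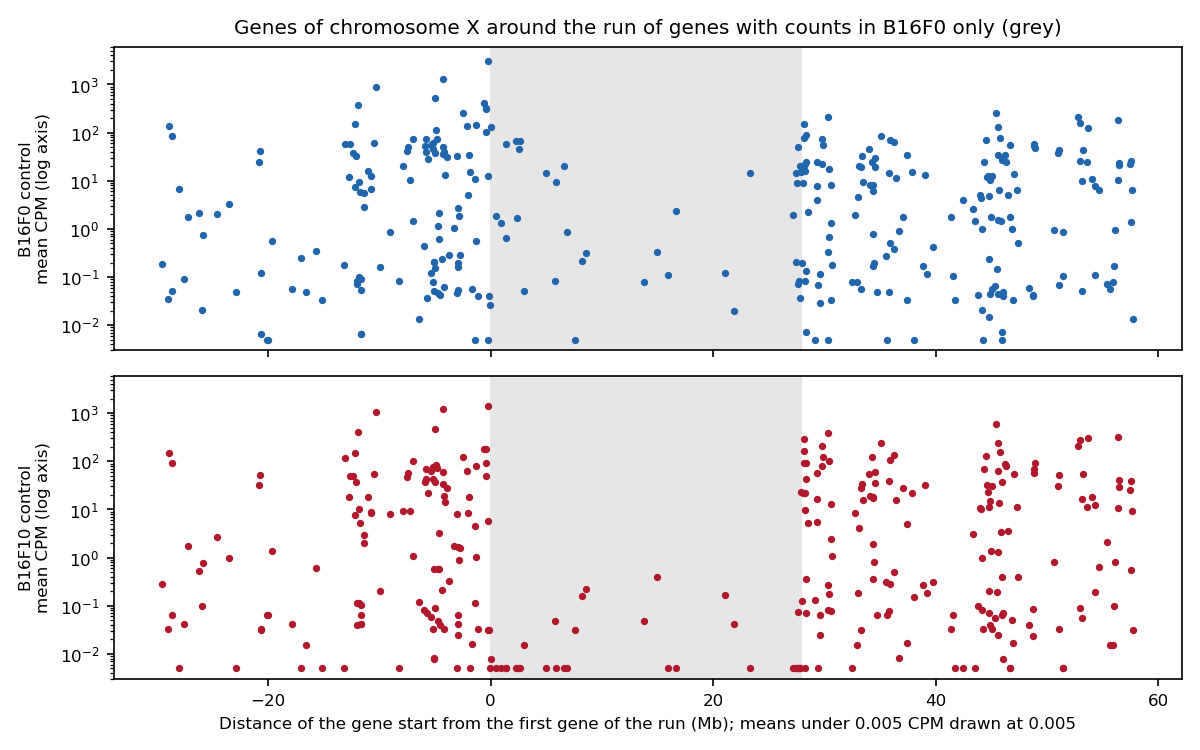
Mean level in CPM (log axis) of genes of all types along the X chromosome around the stretch where 18 genes were counted in B16F0 alone (grey), plotted by distance in megabases from its first gene, in untreated B16F0 (top) and B16F10 (bottom). B16F10 has 1 read over the 41 protein-coding genes inside the 27.86 Mb, where the points well above the bottom edge are other gene types, and both lines have expressed genes on either side.

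Foxr2, a forkhead transcription factor gene on X outside that stretch, was at 53.2 and 56.2 CPM in B16F0, had no count in B16F10 (at least 1100-fold lower) and was at 0.0055 CPM in Melan-A. Kit, the receptor that supports melanocyte survival, and Cdkn1c, an imprinted inhibitor of cyclin-dependent kinases, were also counted in B16F0 alone, at 4.21 and 4.36 CPM and 1.4 and 1.55 CPM, at least 86.3-fold and 29.7-fold lower in B16F10. Both were picked for their known roles after their values were seen.

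Gene lists for melanoma biology put these differences in order, and a list's count is read against the 30.8% of all tested genes that were higher and the 31.2% that were lower, or 7.66% and 12.3% at 2-fold. The median log2 fold change of all tested genes was -0.002, or -0.02 with genes at the lowest measurable level placed at their bound. Where that placement moves a list's median by more than 0.1, both medians are given.

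Of 20 genes of melanin synthesis and the melanosome, 8 were higher and 8 lower in B16F10, with a median of -0.03, and the members went both ways. Tyr, tyrosinase, which catalyses the first step of melanin synthesis, was at 516 and 514 CPM in B16F0 and 70.4 and 65.8 CPM in B16F10. Both B16F10 libraries lay far below both B16F0 libraries, a log2 fold change of -2.92 (adjusted p = 1.2e-31, edgeR's quasi-likelihood test). Trpm1, a cation channel of pigment cells, was at 146 and 142 against 29.1 and 27.6 CPM. The melanosomal transporters Oca2 and Slc24a5 had log2 fold changes of -1.65 and -1.44, and Atp7a, the copper pump that loads tyrosinase, had -1.07, which made 5 genes at least 2-fold lower. Slc24a5 shares 39.5% of its exonic bases with Myef2 on the opposite strand. The later enzymes Dct and Tyrp1 were higher, at 5720 and 5660 against 8668 and 8678 CPM and 6419 and 6458 against 8371 and 8350 CPM. Gpnmb, a melanosomal glycoprotein, went from 6708 and 6656 to 11964 and 11974 CPM (log2 fold change 0.84), the fibril protein gene Pmel had a log2 fold change of 0.24, and Gpr143, a receptor of the melanosome membrane, had 1.66. Slc45a2 (706 and 694 against 683 and 682 CPM) and Myo5a (897 and 909.8 against 871 and 876 CPM) did not pass the test.

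MITF binds the letters CATGTG (the core of the M-box, read as CACATG on the other strand) and CACGTG (the E-box), so the 250 bases before the start of 4 of the 5 genes that were at least 2-fold lower, and of Dct, which was higher, are shown here for a view of the shared and differing letters. Sequences are from RefSeq on GRCm38.p6, written 5′ to 3′ on the strand of the gene, with matches in capitals.
Tyr, chr7:87493513-87493762 (minus strand): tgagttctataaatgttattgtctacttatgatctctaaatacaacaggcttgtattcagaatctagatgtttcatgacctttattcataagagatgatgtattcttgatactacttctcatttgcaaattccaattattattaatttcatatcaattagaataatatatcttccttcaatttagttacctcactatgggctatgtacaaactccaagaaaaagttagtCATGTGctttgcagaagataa
Trpm1, chr7:64153585-64153834 (plus strand): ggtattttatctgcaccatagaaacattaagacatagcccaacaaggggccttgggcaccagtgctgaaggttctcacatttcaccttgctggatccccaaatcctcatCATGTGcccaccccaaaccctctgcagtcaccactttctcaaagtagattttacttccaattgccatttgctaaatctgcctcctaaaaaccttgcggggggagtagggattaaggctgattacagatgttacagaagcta
Oca2, chr7:56239509-56239758 (plus strand): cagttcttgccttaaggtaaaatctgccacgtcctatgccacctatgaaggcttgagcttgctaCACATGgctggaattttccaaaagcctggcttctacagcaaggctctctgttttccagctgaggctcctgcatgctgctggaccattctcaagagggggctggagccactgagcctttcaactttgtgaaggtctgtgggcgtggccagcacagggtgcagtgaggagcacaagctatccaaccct
Slc24a5, chr2:125067877-125068126 (plus strand): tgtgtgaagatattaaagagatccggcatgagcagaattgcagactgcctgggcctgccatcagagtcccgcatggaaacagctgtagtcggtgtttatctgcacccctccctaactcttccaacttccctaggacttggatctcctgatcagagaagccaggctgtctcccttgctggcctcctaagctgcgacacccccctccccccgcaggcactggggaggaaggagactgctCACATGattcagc
Dct, chr14:118052247-118052496 (minus strand): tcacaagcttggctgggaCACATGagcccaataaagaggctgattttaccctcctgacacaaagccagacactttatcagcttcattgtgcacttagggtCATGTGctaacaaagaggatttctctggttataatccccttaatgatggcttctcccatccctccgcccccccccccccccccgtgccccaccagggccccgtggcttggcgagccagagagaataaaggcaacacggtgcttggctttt
Atp7a, the fifth gene at least 2-fold lower, has no CATGTG or CACATG in its window and is not printed. Tyr has CATGTG at position -21 counted from the gene start, Trpm1 at -141 in the window printed, Oca2 has CACATG at -186 and Slc24a5 at -13. Dct has both forms, CACATG at -232 and CATGTG at -150, and the corresponding window of Gpnmb has no match. Trpm1 has another window in the table, at chr7:64185209-64185458, with no CATGTG but with CACGTG at -229. Of the 15 pigment genes with a promoter in the table, 8 had CATGTG on either strand in a window. CATGTG on either strand occurred in 12.3% of 32851 promoters of the same length and CACGTG in 6.02%. Genes with the letters thus lay on both sides of the comparison, and a match is a description of these windows, not a measured binding site.

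The transcription factors known to act above the pigment genes were not lower with Tyr. Mitf was at 371 and 362 CPM in B16F0 and 420.3 and 420.3 CPM in B16F10, a log2 fold change of 0.20 (adjusted p = 2.5e-07, edgeR's quasi-likelihood test), and Sox10 was at 445 and 460.3 against 582 and 589 CPM (0.37). Pax3, which activates Mitf, had 0.35, Sox6 0.68 and Snai2, a factor of neural crest migration, 1.40. All of these were higher in B16F10 with no overlap between the lines. Of 18 melanocyte and neural crest factors tested, 10 were higher and 5 lower, with a median of 0.11, and Foxd3 had no count in any of the 4 libraries.

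Genes of the invasive melanoma state were mostly higher in B16F10, 13 of 23 against 3 lower, with a median of 0.25, or 0.52 with genes at the bound. Ngfr, the neurotrophin receptor of neural-crest-like melanoma cells, was at 9.2 and 8.62 CPM in B16F0 and 108 and 108 CPM in B16F10. Axl, a receptor kinase of drug-tolerant melanoma, was at 69 and 65.8 against 373 and 374 CPM, and Fn1, fibronectin, at 356 and 355 against 1280 and 1276 CPM. The 3 genes had log2 fold changes of 3.6, 2.47 and 1.85, with both B16F10 libraries above both B16F0 libraries. Nes, the neural stem cell filament nestin, was lower (404 and 415 against 188 and 187 CPM), while Tead1, a partner of YAP, was at 87.9 and 85.8 against 83.9 and 85.1 CPM and did not pass. Tnc, tenascin C, a matrix protein of invasive fronts, was named after its values were seen. It had 1 and 1 counts in B16F0 and 153 and 155 in B16F10, a ratio of 176 (48.3 to 1460).

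Integrins were largely lower in B16F10. Of 20 integrin subunits tested, 14 were lower, 9 of them by at least 2-fold, and 4 were higher, with a median of -1.09 (-0.64 with genes at the bound). Itga4, which pairs with beta 1 to bind VCAM1 and fibronectin, was at 299 and 309 CPM in B16F0 and 77.6 and 76.8 CPM in B16F10, and Itga9 at 43.1 and 45.7 against 10.3 and 11.2 CPM. The laminin receptor subunit Itga3 went the other way, from 2 and 6 counts in the B16F0 libraries to 43 and 45.1 CPM in B16F10. Itgb5, a partner of alpha V, was also higher (75.1 and 77.4 against 162 and 161 CPM). The abundant Itgb1 and Itgb3 had log2 fold changes of -0.53 and -0.43.

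Among 28 cadherins and other adhesion molecules 12 were higher and 13 lower, 11 of the latter by 2-fold or more (median -0.47, or 0.09 with genes at the bound). Cdh13, a cadherin anchored without a cytoplasmic tail, was at 16.6 and 16.4 CPM in B16F0 and had 1 and 2 counts in B16F10, a ratio of 684 (234 to 3320). The tetraspanin genes Cd82 and Cd9 were higher, at 5.26 and 5.58 against 44.1 and 39.7 CPM and 158 and 152 against 335 and 328 CPM, and so was Pcdh7 (2.22). Cd82 is known as a metastasis suppressor, a list of which 7 of 21 were higher and 10 lower (median -0.24). On that list Arhgdib and Dlc1 were lower, at 229 and 230.3 against 61.3 and 62.8 CPM and 86.9 and 88 against 38.1 and 39.9 CPM. Med23 was at 43.6 and 42.4 against 40.9 and 43 CPM and did not pass the test.

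Matrix genes went both ways. Of 36 collagen, laminin and basement membrane genes, 14 were higher, 10 of them by 2-fold or more, and 11 lower, 7 by 2-fold or more (median 0.17). The basement membrane chains Col4a1 and Col4a2 were at 201 and 211 and 97 and 99.1 CPM in the B16F0 libraries and 523 and 522 and 708 and 704 CPM in the B16F10 libraries, in that order. The laminin chain Lamb1 went from 49.1 and 47.5 to 293 and 297 CPM, and Loxl2, which crosslinks collagen, from 5.58 and 5.19 to 55.1 and 56.2 CPM. All 4 were higher with no overlap, whereas Nid2 (nidogen 2) and Lama5 had log2 fold changes of -6.16 and -1.62. Nid1 was at 20.9 and 20.2 against 22.2 and 22.6 CPM and did not pass.

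Matrix proteases and their inhibitors were higher at 19 of 34 genes and lower at 9 (median 0.45). The sheddases Adam10 and Adam19 were at 174 and 171 against 434 and 443 CPM and 20.7 and 23.1 against 102 and 109 CPM. The membrane protease Mmp14 had a log2 fold change of 0.43, and Plat, tissue plasminogen activator, 1.43. The other plasminogen activator gene Plau went the other way, from 19.8 and 19 to 0.943 and 1.05 CPM (-4.28), and Adamts1 was lower (-0.89). Mmp16 was counted in B16F0 alone, at least 119-fold lower in B16F10. Adam17 (96.3 and 93.9 against 95.9 and 97.6 CPM) and Timp2 (432 and 438 against 435 and 445 CPM) did not pass.

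Of 40 genes of the actin cytoskeleton and motility, 22 were higher and 10 lower (median 0.17). Tmsb4x, thymosin beta 4, which sequesters actin monomers and lies on X outside the silent stretch, was at 11 and 10.4 CPM in B16F0 and 105 and 106 CPM in B16F10. The actin-binding genes Tagln2 and Cald1 went from 57.6 and 59.2 to 419.7 and 409.6 CPM and from 492 and 506 to 1316 and 1336 CPM, and Fscn1, which bundles actin in protrusions, from 15.4 and 17.5 to 87.6 and 88 CPM. Each was higher in both B16F10 libraries. The linker genes Ezr (-0.06) and Rdx (-0.01) did not pass the test.

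Secreted immune signals separated the lines further. Of 23 chemokines and receptors tested, 8 were higher, 6 of them by at least 2-fold, and 5 lower (median 0.00, or 0.23 with genes at the bound). Cxcl1, a ligand of CXCR2 that attracts neutrophils, was at 12.7 and 12.7 CPM in B16F0 and 79.4 and 81.5 CPM in B16F10, a log2 fold change of 2.67 (adjusted p = 3e-27, edgeR's quasi-likelihood test). The related ligand Cxcl2 was at 0.387 and 0.669 against 0.661 and 0.266 CPM and did not pass, Cxcl5 had a log2 fold change of 4.63, and Cxcl3 had no count. The receptor genes Cxcr1 and Cxcr2, the targets of SX-682, had 0 and 0 and 1 and 0 counts in the B16F0 libraries and 0 and 0 and 0 and 0 in the B16F10 libraries, so a difference was not detectable at this depth. Cx3cl1, a membrane-bound chemokine, went from 3.88 and 3.66 to 20.1 and 20.1 CPM and Cxcl10, a ligand of CXCR3 on T cells, from 36.7 and 35.4 to 67.4 and 67.9 CPM. Ccl7 and Ccl8, which lie beside Ccl2, had no count in B16F0 and were at 0.595 and 0.485 and 0.347 and 0.0782 CPM in B16F10, at least 12.1-fold and 4.77-fold higher, and were named because Ccl2 led the list. Ccl5 was lower (9.53 and 8.91 against 4.86 and 5.54 CPM).

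The promoter of Cxcl1 is shown because the gene was higher in B16F10 and its induction through NF-kB is well known, with the NF-kB motif, GGGA and TTCC with any 2 bases between them on either strand, in capitals (RefSeq, GRCm38.p6).
Cxcl1, chr5:90890995-90891244 (plus strand): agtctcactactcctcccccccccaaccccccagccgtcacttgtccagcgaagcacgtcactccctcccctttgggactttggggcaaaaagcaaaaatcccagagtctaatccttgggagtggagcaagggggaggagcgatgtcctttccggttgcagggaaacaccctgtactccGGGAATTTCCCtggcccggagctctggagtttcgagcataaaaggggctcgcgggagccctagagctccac
The capitals hold a pair of overlapping matches, GGGAATTTCC at -71 and GGAATTTCCC, its reverse-strand form, at -70. Such a match occurred in 1.21% of the 32851 promoters. The same windows of Serpine2, Ccl8 and Tnc held neither these letters nor TGANTCA, the AP-1 motif, which occurred in 6.75%.

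Among 27 other cytokines, 11 were higher and 10 lower (median -0.04, or 0.12 with genes at the bound). Gdf15, a stress cytokine, was at 2.3 and 2.2 CPM in B16F0 and 21.6 and 20 CPM in B16F10, and Pdgfb, a platelet-derived growth factor chain, at 0.681 and 0.625 against 10.7 and 11.6 CPM. The vascular factors Angptl2 and Angpt2 were higher (1.69 and 1.18), while Vegfa, the main angiogenic factor, was lower, at 72.8 and 67.1 CPM in B16F0 and 30.3 and 31.2 CPM in B16F10. Neither line overlapped the other at any of these 5 genes.

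Most genes of antigen presentation were higher in B16F10. Of 20 genes of MHC class I presentation, 16 were higher, 10 of them by at least 2-fold, and 2 were lower, with a median of 0.98. The heavy chain gene H2-K1 was at 95.9 and 94.9 CPM in B16F0 and 173 and 175 CPM in B16F10, its light chain B2m at 284 and 287 against 629 and 626 CPM, and the non-classical H2-Q4 at 8.7 and 8.11 against 54.5 and 56.4 CPM. Each B16F10 library exceeded both B16F0 libraries at these genes. The peptide loading and processing genes Tapbp and Erap1 had log2 fold changes of 1.31 and 1.69, the immunoproteasome subunits Psmb8 and Psmb9 3.69 and 1.61, and Nlrc5, the transactivator of class I genes, 2.53. The genes Canx (-0.36) and Psme1 (-0.12) were lower, and Calr (2053 and 2075 against 2074 and 2073 CPM) and H2-T23 (4.23 and 2.93 against 5.16 and 4.1 CPM) did not pass. Reads of the H2 genes can be split between close copies, and H2-Q4 and Tapbp share 19.1% and 24.9% of their exonic bases with genes on the opposite strand.

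Interferon genes were lower more often than higher. Of 45 tested, 12 were higher and 20 lower (median -0.24). The RNA sensor gene Ifih1 was at 10.1 and 11.8 CPM in B16F0 and 2.68 and 2.67 CPM in B16F10, and the ubiquitin ligase gene Trim25 at 60.7 and 59.3 against 21.9 and 20.8 CPM, both lower. Jak1, a kinase of interferon receptors, and Gbp2, a guanylate-binding protein, were higher (0.82 and 1.87). Jak2 (-0.02) and Ifngr2 (0.00) did not pass.

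Of 13 immune checkpoint ligands tested, 9 were higher and 1 lower (median 0.37). Lgals3, galectin 3, a lectin that binds glycans on T cells, was at 388 and 380.3 CPM in B16F0 and 3017 and 3004 CPM in B16F10, a log2 fold change of 2.97 (adjusted p = 5.2e-37, edgeR's quasi-likelihood test). The TIGIT ligands Nectin2 and Pvr had 0.58 and 0.37, and Lgals9, galectin 9, was the lower one (65.4 and 61.5 against 46.7 and 45.9 CPM). Ido1, which depletes tryptophan and was named after its values were seen, had no count in B16F0 and was at 0.182 and 0.235 CPM in B16F10, at least 4.67-fold higher.

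Growth and patterning pathways differed in direction. Of 36 genes of the TGF-beta and BMP pathway, 22 were higher and 6 lower (median 0.39). The ligand gene Tgfb1 was at 52.3 and 52.9 CPM in B16F0 and 98.2 and 98.5 CPM in B16F10, and Bmp1, a protease that releases ligands and processes collagen, at 30.6 and 30.4 against 90.1 and 94.1 CPM. The feedback genes Smurf1, Smad6 and Smad7 had log2 fold changes of 0.95, 1.59 and 1.14, and Id3, a target of BMP signals, 1.11. Smad1 (-0.11) and Skil (0.05) did not pass. Grem1, a BMP antagonist, was counted in B16F10 alone (at least 32.6-fold higher).

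Outputs and feedback genes of the MAP kinase pathway, which is driven by growth factor receptors and RAS, were higher at 25 of 34 and lower at 7 (median 0.56). The transcription factor Etv5 was at 8.62 and 8.48 CPM in B16F0 and 41 and 42.1 CPM in B16F10, the immediate early gene Egr1 at 3.62 and 3.58 against 16.1 and 17.5 CPM, and Dusp10, a phosphatase of stress kinases, at 10.9 and 9.76 against 47.1 and 49.5 CPM. Ccnd1, cyclin D1, went from 291 and 291 to 825 and 840.4 CPM (1.52). All 4 were higher without overlap, and 23.4% of the exonic bases of Ccnd1 lie opposite another gene. The feedback genes Spry2, Spry4 and Dusp6 had 1.28, 1.54 and 0.59, and Dusp4 (195 and 193 against 188 and 193 CPM) did not pass.

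Among 32 growth factor receptors 10 were higher and 14 lower, 10 of them by at least 2-fold (median -0.02). Erbb3, a receptor for neuregulin, was at 98.8 and 97.2 against 224 and 224 CPM. Pdgfrb, Ghr (the growth hormone receptor) and Nrp2 (a coreceptor for VEGF and semaphorins) were lower, at 11.9 and 11.1, 14.2 and 13.3 and 659 and 651 CPM in the B16F0 libraries and 1.34 and 1.03, 0.447 and 0.72 and 305 and 315 CPM in the B16F10 libraries in the same order. Pdgfrb is also among the fibroblast markers, whose summed level was lower in B16F10 as given above, and the part of other cells in it was not tested. Met, the receptor for hepatocyte growth factor, was at 431 and 436 against 417 and 422 CPM and did not pass.

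Wnt genes were higher at 16 and lower at 11 of 37 (median 0.30). The antagonists Sfrp1 and Nkd2 had no count in B16F0 and were at 13 and 13.5 and 8.4 and 8.61 CPM in B16F10, at least 297-fold and 191-fold higher. The coreceptor gene Lrp5 was lower (118 and 116 against 43.7 and 45.3 CPM), as was the feedback target Axin2 (-1.11), and Ctnnb1, beta-catenin, was at 995 and 988 against 998 and 1001 CPM without passing. Of 21 Notch genes 8 were higher and 8 lower (median -0.06), with the receptor Notch3 at 3.5 and 3.03 against 16 and 15.6 CPM. The glycosyltransferase gene Mfng, which modifies Notch, had 765 and 666 counts in B16F0 and 0 and 2 in B16F10, a ratio of 626 (173 to 5170).

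Guidance genes, the ephrins, semaphorins and their receptors, were higher at 17 and lower at 23 of 47 (median -0.22). Beside Epha3, the semaphorin receptor Plxnc1 was lower, at 113 and 109 CPM in B16F0 and 18.5 and 21.1 CPM in B16F10, and so was Sema6d (34.4 and 32.7 against 2.98 and 2.91 CPM). Plxna2, another semaphorin receptor, went the other way, from 5 and 7 counts in B16F0 to 24.6 and 24.7 CPM in B16F10. Epha4 was counted in B16F10 alone, at least 138-fold higher.

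Genes of the cell cycle differed by little. Of 36 proliferation genes, 10 were higher and 20 lower, and none reached 2-fold in either direction (median -0.14). Mki67, the marker of cycling cells, was at 479 and 497 CPM in B16F0 and 481 and 478 CPM in B16F10 and did not pass the test. Cdk2, Ccna2 and Aurkb, which drive S phase and mitosis, were lower (-0.81, -0.60 and -0.61), and Rrm1, a subunit of ribonucleotide reductase, was higher (0.53).

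Of 29 genes of the p53 pathway and CDK inhibitors, 19 were higher and 6 lower (median 0.30, or 0.44 with genes at the bound). Bax and Phlda3, which promote cell death, were at 95 and 92.1 against 174 and 171 CPM and 188 and 196 against 361 and 365 CPM, while the cell cycle inhibitor Cdkn1a was lower (742 and 698 against 497 and 495 CPM). In the BCL2 family 6 of 16 were higher and 5 lower (median -0.06, or 0.06 with genes at the bound). The survival genes Bcl2 and Bcl2l1 were both higher, at 53.7 and 56.7 against 158 and 157 CPM and 121 and 117 against 172 and 168 CPM, and Bcl2 alone passed 2-fold.

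Genes of glycolysis and lipid synthesis were mostly lower in B16F10. Of 39 genes of the hypoxia response and glycolysis, 30 were lower and 7 higher (median -0.33). The glycolytic enzymes Eno1 and Pgk1 were at 4422 and 4364 and 3055 and 2957 CPM in the B16F0 libraries and 2220 and 2208 and 1441 and 1405 CPM in the B16F10 libraries, in that order. Hk1, hexokinase 1, was an exception (299 and 294 against 925 and 926 CPM), as was Adm, the vasodilator peptide adrenomedullin (4.62 and 4.48 against 73.5 and 74.7 CPM). Gpi1 (933 and 920.2 against 916 and 917 CPM) did not pass.

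Of 33 genes of cholesterol and fatty acid synthesis, 23 were lower and 6 higher (median -0.45). Hmgcs1, an early enzyme of the mevalonate pathway, was at 300.2 and 297 against 117 and 119 CPM, and Acly, which supplies acetyl-CoA, at 554 and 553 against 319.7 and 324 CPM. Sqle and Fads1 were higher (0.70 and 0.69), and Mvk (0.02) and Nsdhl (-0.01) did not pass. Genes of the ATF4-CHOP stress response were lower at 19 of 28 and higher at 8 (median -0.26), with Atf4 itself at 224 and 230.2 against 225 and 225 CPM. Slc7a11, the cystine importer that also belongs to the NRF2 list, was at 81.3 and 83.7 against 21.4 and 22 CPM. Of 29 NRF2 genes 15 were lower and 12 higher (median -0.13), with Akr1b8 at 59.9 and 63 against 10.2 and 9.92 CPM and Cbr3, a carbonyl reductase, at least 488-fold lower with no count in B16F10.

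**Figure D3:**
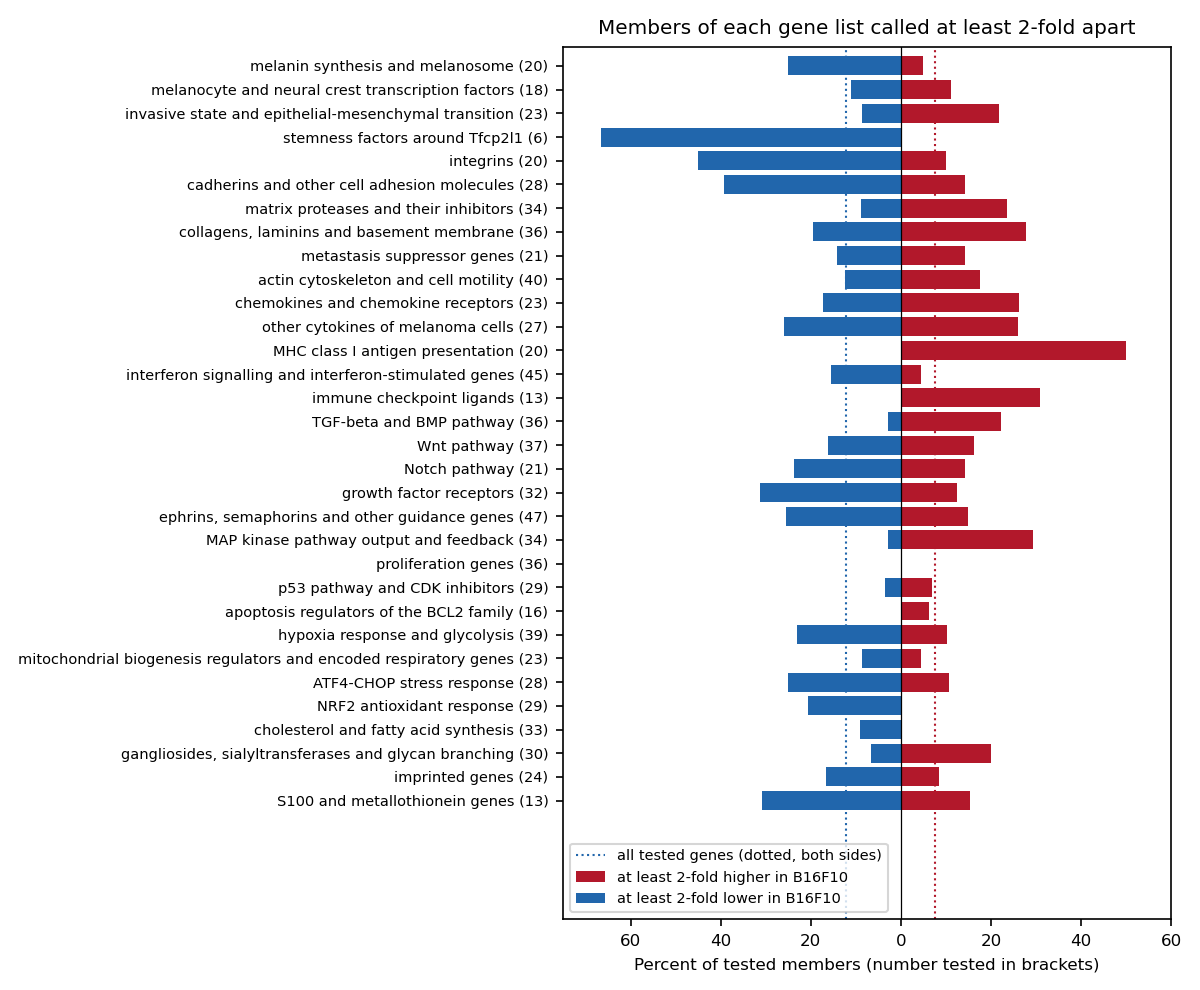
Members of each gene list called at least 2-fold higher (red, right) or at least 2-fold lower (blue, left) in untreated B16F10, in percent of the members tested, whose number stands in brackets. Dotted lines mark all tested genes, at 7.66% higher and 12.3% lower. MHC class I presentation has members to the right and none to the left, integrins lie mostly to the left, and proliferation genes have no bar.

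Of 6 tested genes on a list of stemness factors drawn up around Tfcp2l1, 2 were higher and 4 lower (median -1.37, or -0.97 with genes at the bound). Tfcp2l1, the transcription factor the study centres on, had 6 and 7 counts in the B16F0 libraries and 0 and 1 in the B16F10 libraries, a ratio of 11.4 (1.71 to 483) at the edge of what could be measured, and Melan-A held 8.71 CPM. Klf4 and Klf5, Kruppel-like factors, were lower, at 6.81 and 6.69 against 2.05 and 2.16 CPM and 1.74 and 2.07 against 0.43 and 0.438 CPM. Klf2 of the same family was lower too (-1.05). Myc was higher (76.7 and 75.4 against 104 and 102 CPM), as was Notch1 (0.22). Hmga2, a chromatin protein of embryonic cells that is not on this list, was also higher (63.2 and 65.7 against 103 and 105 CPM). Nanog had 6 and 2 counts in B16F0 and 0 and 0 in B16F10, Esrrb had 6 and 1 and 2 and 0, and Sox2 had none in the 4 libraries.

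Differences also ran along the chromosomes. The 10524 genes with at least 2 CPM in both lines had a median log2 fold change of 0.04, but the median was 0.35 on chromosomes 7 and 18, 0.28 on chromosome 6 and 0.22 on chromosome 4, and -0.34 on chromosome 12, -0.26 on chromosome 13 and -0.23 on chromosome 8. Over all genes tested, including those at low levels, the medians were 0.27, 0.23, 0.17 and 0.12 on chromosomes 7, 18, 6 and 4 and -0.35, -0.23 and -0.27 on chromosomes 12, 13 and 8. The SX-682 libraries gave 0.42, 0.34, 0.26 and 0.20 on chromosomes 7, 18, 6 and 4, and -0.29, -0.22 and -0.19 on chromosomes 12, 13 and 8. Medians over sliding windows of 50 neighbouring genes reached 0.4 in size in 820 of 9530 windows (8.6%). Joined where they overlapped, these formed 20 regions with 1939 of the 10524 genes (18.4%), 14 higher and 6 lower in B16F10, and all 20 had the same sign in the SX-682 libraries.

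The region with the highest median lay at chrX:101640060-169320372 (GRCm38), where 114 genes had a median of 0.62 and 77.2% of them were above 0. It spans the stretch with nearly no reads in B16F10, whose genes do not enter because a level in both lines was required. On chromosome 7, 240 genes at chr7:16809246-45710203 had a median of 0.42 with 88.8% of them above 0, and on chromosome 18, 195 genes at chr18:34330847-90592528 had 0.42. The lower regions included chr12:26300964-81532911, with 157 genes, a median of -0.46 and 87.3% below 0, and chr13:100802648-119790889, with 51 genes and -0.50. Only the RNA values of these libraries were used here.

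**Figure D4:**
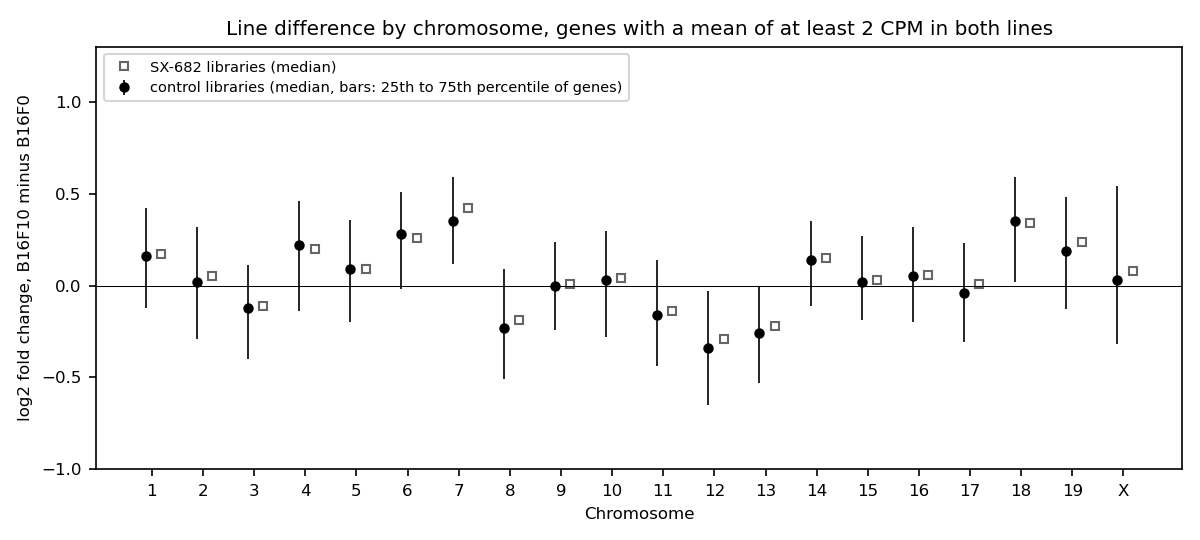
Median log2 fold change, untreated B16F10 minus B16F0, of genes with at least 2 CPM in both lines on each chromosome, with the middle 50% of genes as bars and the value in the SX-682 libraries beside it. Chromosomes 7 and 18 lie highest among the numbered chromosomes at 0.35 and chromosome 12 lowest at -0.34.

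The same contrast in the SX-682 libraries used other samples of both lines. It called 11470 of 18338 genes (62.5%), and 3470 (95%) of the 3652 genes that differed by at least 2-fold without treatment had the same sign there, 2912 (79.7%) being called as well. The opposite sign was called at 25. A test of the difference between the treated and untreated contrasts called 5551 genes (30.3%), among them 818 of the 3652. Tyr is an example of a wider gap, with 302 and 276 CPM in SX-682 B16F0 and 18.3 and 17.6 CPM in SX-682 B16F10, and Cxcl1 of a narrower one, with 41.4 and 40.8 against 132 and 127 CPM.

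**Figure D5:**
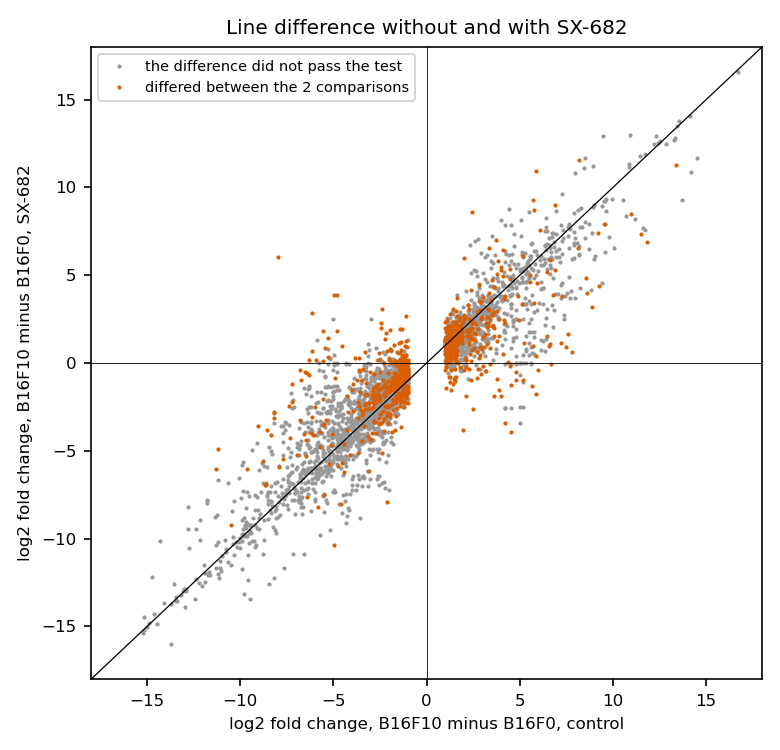
Log2 fold change B16F10 minus B16F0 in the untreated libraries (horizontal) and in the SX-682 libraries (vertical) for the genes that differed by at least 2-fold without treatment. Of 3652 genes, 3470 lie in the quadrants of equal sign, and the difference between the contrasts was called at 818 (orange). The diagonal marks equal differences.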

How the data were processed

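RNA of mouse cell cultures was sequenced, and the authors deposited 1 table of raw read counts per gene for all 12 libraries. The submitters' processing notes name cutadapt, STAR, DESeq2 and the mm10 build, and the versions, the counting program and its strand setting are not given in the sources used here. Per the labels, RNA was extracted with a column kit and libraries were grouped by line and treatment. The members and the gene lists were chosen with earlier results of these data known.

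Counts of all 34513 genes were used, and 18338 were tested after edgeR's filterByExpr. A quasi-likelihood fit in edgeR 4.0.16 (R 4.3.3) with TMM scaling and a prior count of 0.125 used all 12 libraries in 6 groups, with p-values adjusted by the Benjamini-Hochberg method over all genes tested and a threshold of 0.05. CPM are counts over the TMM-scaled library size. Positions are on GRCm38 with GENCODE gene models. A level was called not measurable at 3 counts or fewer. Fold changes against such a level were computed against that floor in the library where it stands for the higher CPM, when all counts were 0, or as a ratio with an exact 95% interval, and both cover counting error only. Named genes were the 15 largest called differences in each direction with separated libraries and more than 3 counts in all 4 libraries, the 10 highest genes counted in 1 line alone, up to 4 called members and 2 not called of each list, and genes central to the study, with symbols ending in Rik, Gm numbers and clone names left out of the first 2 kinds. A member that this rule named is not reported here. Kit, Cdkn1c, Tnc, Ido1, Gstp1, the genes of the X stretch and list members given only with a fold change were chosen after their values were seen, and so was the joining of neighbouring windows and silent genes. The pipeline was tested on simulated counts of 17008 genes for this comparison. It recovered 32 of 50 genes changed by 1.25-fold, 39 of 50 by 1.5-fold, 45 of 50 by 2-fold and 50 of 50 by 4-fold, with 6 false calls. All simulated libraries shared the same mean profile and a fixed spread, and only these genes were changed. The false calls therefore cannot show the error rate of the real comparison, where most genes were called. Replicate numbers did not pair the libraries (correlation of deviations -0.01 between the lines). Alternatives were DESeq2 1.42.0, other scalings, filters and thresholds, fewer libraries, a replicate block and each library left out.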

Additional observations from a re-analysis of the deposited data

Results flagged for a closer look

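The line difference itself differed between the SX-682 and the untreated libraries at 5551 genes, by a test of the difference in edgeR's quasi-likelihood fit at an adjusted p of 0.05. Among 39 genes from the naming rule that were checked, the difference was called at 21, reached 1 on the log2 scale at 9, and left the sign of the line difference as it was at 38. The values below are the log2 line difference with SX-682 minus that without it.

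The gap between the lines was wider with SX-682 at Ddah2, where the difference was 2.12 (adjusted p = 0.00012 in edgeR) and the B16F0 libraries went to 0.137 and 0.0831 CPM. Tyr was also further apart, with a difference of -1.09 (adjusted p = 8.5e-15 in edgeR), since B16F0 held 302 and 276 CPM and B16F10 18.3 and 17.6 CPM with SX-682. Pcdhgb2 had a difference of -1.23, again toward a wider gap.

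The gap was narrower at Cxcl1, where the difference was -1.01 (adjusted p = 1.4e-12 in edgeR), with 41.4 and 40.8 CPM in B16F0 and 132 and 127 CPM in B16F10. Vegfa, with a difference of 1.05, stood at 54 and 49 against 48.2 and 45.8 CPM, and Klf4, with 1.03, at 4.84 and 4.92 against 3.08 and 3.11 CPM. Vill, Arl6ip1 and Edil3, all nearly absent from B16F10, had differences of 1.27, 1.70 and 1.19.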

How the results depend on the processing

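The count of called genes, 11368, was 11180 with DESeq2, 11358 with DESeq2's size factors in edgeR, 11276 without the filter, 11274 with only the 4 untreated B16F0 and B16F10 libraries, and 10368 to 10528 with each of these libraries left out. A fit with the replicate number as a block called 11267, and the numbers do not pair the libraries (correlation of deviations -0.01). The share of called genes that were higher stayed between 49.6% and 51.3%. With a minimum of 2-fold the count was 3652 (1404 higher and 2248 lower, and 272 members of the gene lists in place of 708), and with edgeR's test against a 2-fold minimum 2389 (941 and 1448), both by construction of a stricter rule. Requiring 10 counts in each of the 12 libraries left 635 genes at least 2-fold higher and 944 at least 2-fold lower. Genes under that count in 1 B16 line or in Melan-A do not enter. Genes counted in B16F10 alone numbered 87 with a minimum of 0.5 CPM and 28 with 0 counts required in B16F0, and those in B16F0 alone 88 with 0 counts required in B16F10, 116 in all against 198. Windows of 25 genes gave 55 regions and windows of 100 genes 8, in place of 20. Chromosome medians over genes with at least 2 CPM in both lines ran from 0.34 to 0.37 on chromosome 7, 0.34 to 0.36 on chromosome 18 and -0.36 to -0.32 on chromosome 12, whereas over all genes tested, a choice made after seeing the data, they were 0.27, 0.23 and -0.35. All 1808 values that the alternatives gave for the 152 named genes that were called kept their sign and call. Alternatives that gave no value for a gene are left out. Most of these genes were named for a large fold change or a small adjusted p in the same data. Their stability therefore says little of the other called genes. Of the 56 named genes not called, 22 had the opposite sign under at least 1 alternative, and 27 of their 659 values gained a call with the sign kept. The depth limits statements on genes at 3 counts or fewer, such as Cxcr1, Cxcr2 and Nanog.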

Other observations

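Some gene groups outside the main account also differed between the untreated lines. Of 23 regulators of mitochondrial biogenesis and respiratory genes encoded by mitochondrial DNA, 16 were higher and 4 lower in B16F10 (median 0.44). The complex I subunit genes mt-Nd1 and mt-Nd2 were at 752 and 781 and 424 and 435 CPM in the B16F0 libraries and 1305 and 1257 and 969 and 911 CPM in the B16F10 libraries, in that order, and with SX-682 their log2 line differences were 1.79 and 2.12 against 0.74 and 1.13 without it. Of 30 ganglioside and glycan genes 13 were higher and 8 lower (median 0.04). St3gal5, which makes the ganglioside GM3, was at 73.8 and 74 CPM in B16F0 and 221 and 220.0 CPM in B16F10, and Gcnt1, which branches O-linked glycans, at 26.5 and 26.6 against 84.3 and 82.5 CPM. Neither gene overlapped between the lines.

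Imprinted genes, which are expressed from the copy of 1 parent, were higher at 6 and lower at 6 of 24 (median 0.00). Peg13 and Impact were higher (16.5 and 17.7 against 56.6 and 54.3 CPM and 21.1 and 18.7 against 43.6 and 44.7 CPM), and Peg10 and Mest were lower (98.9 and 100.4 against 64.4 and 65 CPM and 13.5 and 13.9 against 3.92 and 3.75 CPM). Of 13 S100 and metallothionein genes 5 were higher and 5 lower (median -0.03, or 0.11 with genes at the bound). S100b, a serum marker of melanoma, was at 119 and 118 CPM in B16F0 and 40.4 and 40.1 CPM in B16F10, S100a6 at 13.6 and 15.5 against 1.98 and 2.06 CPM, and S100a11 went the other way (102 and 103 against 224 and 227 CPM).

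Asns and Trib3, targets of ATF4 in amino acid shortage, were lower in untreated B16F10, at 212 and 216 against 107 and 106 CPM and 52.6 and 51.8 against 11.1 and 9.94 CPM. With SX-682, Asns stood at 499.6 and 501 CPM in B16F0 and 501 and 502 CPM in B16F10, and Trib3 at 322 and 319 against 325 and 326 CPM, so the log2 line differences were 0.00 and 0.02 there against -1.01 and -2.31 without it. Both were singled out after their values were seen.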
